A study of Rattus norvegicus with 16 samples.

Results

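The mitochondrial respiratory chain was followed in livers of 21-day-old male rats through 84 nuclear genes with a probe on the array, of which 81 passed the filter on dim signal among 13146 transcripts tested. Members were all genes whose symbol begins with Nduf, Uqcr, Cox4 to Cox8 or Atp5, together with Sdha, Sdhb, Sdhc, Sdhd and Cycs, each read by its brightest probe. They comprise 33 genes of complex I and 6 of its assembly factors, 4 of complex II, 8 of complex III, cytochrome c, 17 of complex IV and 15 of complex V. The 3 that did not pass were Cox6a2, Cox8c and the pseudogene Cox6c-ps1, all listed with complex IV. Cyc1, Cox7a1, Cox7b2, Ndufa4l2 and Atp5mc3 were not analysed here.

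The respiratory chain sits in the inner mitochondrial membrane. Complex I takes electrons from NADH and complex II from succinate. Ubiquinone carries them to complex III and cytochrome c to complex IV, which reduces oxygen. The protons pumped on the way drive ATP synthesis by complex V. Hepatocytes are rich in mitochondria, and several small subunits of complex IV exist as a form found in most tissues and a second form used in striated muscle, brown fat, lung or testis.

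Dams were dosed through gestation and lactation, and the Sprague-Dawley pups stayed with their birth mothers. The vehicle group (C) was given corn oil. Groups 0.5M and M were given organochlorine pesticides, polychlorinated biphenyls (PCBs) and methyl mercury in corn oil at 0.5 and 1.0 mg/kg/day, and group AhR was given aryl hydrocarbon receptor agonists (non-ortho PCBs, dioxins and dibenzofurans) at 1.8 ng/kg/day in dioxin toxic equivalents. Each of the 4 arrays of a group held liver RNA of 2 pooled pups (8 pups per group) in Cy5, against a reference RNA of 14 rat cell lines in Cy3. Replicates 1 and 2 of every group lay on slide 1 and replicates 3 and 4 on slide 2. Which pups shared a litter was not given in the sources used here, so p-values measure the spread between these pools.

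A value is the log2 ratio of liver to reference RNA for 1 probe, and a difference is the gap between group means of that ratio. In bulk liver RNA, fewer cells of a type and less RNA per cell cannot be told apart. The scanner software marked 7082 (M 1) to 15686 of 30367 probes per array as well above background for the liver RNA. Of the tested members, 75 to 81 were so marked, 75 of them on all 16 arrays. Hepatocyte markers were well above background in 9 or 10 of 10 genes on every array. Cyp1a1, the aryl hydrocarbon receptor's best known target, lay between -2.01 and -1.08 in C, between 0.60 and 1.12 in AhR, between 1.85 and 2.69 in 0.5M and between 2.86 and 3.05 in M, so the groups were separated for that gene. Skeletal muscle markers stood apart on M 2 and 0.5M 4, and brown fat markers on C 2 (median 0.31, 3 of 6 genes above background). C 4 also had 3 of 6 brown fat genes above background, at a median of -0.04. Exocrine pancreas markers stood apart on M 1 (median 1.02, 9 of 12 genes above background) and AhR 2 (0.71, 10 of 12). On the other 14 arrays the pancreas median lay between -0.15 and -0.02. Over all arrays, the median of 6 white fat markers ranged from -0.14 to 0.63 (highest on C 2) and that of 5 red blood cell markers from 0.52 to 1.55.

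The promoters of 3 complex IV genes are shown because their transcripts gave the widest contrast among the members. Cox8a is the form of subunit 8 found in most tissues, Cox8b is its form in striated muscle and brown fat, and Cox6a2 is the striated muscle form of subunit 6a. Of the 84 members, 74 had an entry in the RefSeq promoter table (build GRCr8). Each sequence is the 250 bases before the gene's start, in lower case with motifs in capitals. They lie at chr1:213833624-213833873 (minus strand), chr1:205408274-205408523 (minus strand) and chr1:192219717-192219966 (minus strand), and each is printed on the gene's own strand.
Cox8a: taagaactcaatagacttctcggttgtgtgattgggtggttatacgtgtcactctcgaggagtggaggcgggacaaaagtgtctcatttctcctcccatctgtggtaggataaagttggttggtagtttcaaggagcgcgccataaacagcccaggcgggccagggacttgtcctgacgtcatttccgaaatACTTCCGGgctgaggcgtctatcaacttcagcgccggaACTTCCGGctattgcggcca
Cox8b: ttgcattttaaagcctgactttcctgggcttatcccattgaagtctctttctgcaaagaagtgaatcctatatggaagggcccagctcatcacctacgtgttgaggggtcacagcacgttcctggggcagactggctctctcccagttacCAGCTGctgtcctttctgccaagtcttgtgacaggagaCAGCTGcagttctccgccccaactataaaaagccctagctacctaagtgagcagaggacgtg
Cox6a2: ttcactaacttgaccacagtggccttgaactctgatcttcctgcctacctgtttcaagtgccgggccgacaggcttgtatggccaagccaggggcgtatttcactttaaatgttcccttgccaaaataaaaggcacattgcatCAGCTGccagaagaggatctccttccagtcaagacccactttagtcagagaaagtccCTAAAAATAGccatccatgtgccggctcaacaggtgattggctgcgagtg

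In Cox8a the capitals mark 2 copies of the ETS-type motif CCGGAAGT, both read on the opposite strand and beginning 58 and 20 bases before the start. In Cox8b they mark 2 E-boxes (CAGCTG, which reads the same on both strands and was counted once) at 100 and 62 bases. In Cox6a2 they mark 1 E-box at 107 bases and a MEF2 motif at 50 bases. Both strands were searched, and no motifs overlap in these sequences. The ETS-type motif was in the window of 7 of 74 members (9.46%), against 1037 of 33469 promoters of the same length. A motif of the NRF1 type was in 12 members (16.2%), against 3.75% of all promoters. Among these were Sdha, Ndufv3 and Uqcrc1. The E-box was in 9 of 74 members and 4007 of 33469 promoters, and the MEF2 motif in Cox6a2 alone among the members, against 0.523% of all promoters. These are matches of letters and show no binding.

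Cox8b and Cox6a2 differed between single arrays, not between groups. Cox8b was 3.41 on 0.5M 4 and 2.84 on M 2. It was 0.72 on C 2, and the other 13 arrays lay between -1.13 and -0.08. In full, the C arrays read -0.48, 0.72, -1.13 and -0.96, the 0.5M arrays -0.90, -0.47, -0.91 and 3.41, the M arrays -0.08, 2.84, -0.68 and -0.61 and the AhR arrays -0.48, -0.77, -1.10 and -1.13. In 0.5M and M, 1 pool of 4 was far above the rest, and all 4 groups overlapped. The gene was well above background on 2 arrays of C, 1 of 0.5M, 3 of M and none of AhR.

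Cox6a2 showed the same pair of arrays. It was 4.07 on 0.5M 4 and 3.80 on M 2, and between -2.08 and -0.40 on the other 14, where it was not well above background. On C 2, the next array in order for Cox8b, Cox6a2 was -1.21. It was not tested, since only 2 arrays measured it. With C and AhR at their dim signal, the mean liver signal of M was 2.67-fold higher than C and 2.60-fold higher than AhR. That of 0.5M was 2.87-fold and 2.80-fold higher. Each of these folds rests on 1 array. The other arrays of M and 0.5M were dim too and entered the means at their measured signal, so the folds are not strict lower bounds. They compare mean liver-channel signals and are open to dye bias, since no dyes were swapped.

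Skeletal muscle markers moved with these genes. The median of 22 markers was 2.83 on M 2 and 2.85 on 0.5M 4, with 20 and 22 of them above background. On the other 14 arrays it lay between -1.47 and -0.24, with 0 to 12 above background. Ckm, the muscle creatine kinase, was 3.13 on M 2 and 3.52 on 0.5M 4. On C 2, Ucp1, the uncoupling protein that defines brown fat, was 3.33 against -0.64 to -0.13 on the other 15 arrays, and Cidea, also of brown fat, was 0.51 against -1.96 to -0.67. The part of other tissues in the Cox8b and Cox6a2 values was not tested beyond these levels and the leave-out fits that follow.

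Cox8b differed by 0.83 ± 0.86 (SE, n = 4 and 4; limma adjusted p = 0.80) for M against C, by 0.74 for 0.5M against C (adjusted p = 0.89) and by -0.41 for AhR against C (0.9996). Without M 2 and 0.5M 4 the first of these was 0.11 and the second -0.41. Within slide 1 the 0.5M difference was -0.80 and within slide 2, which holds 0.5M 4, it was 2.29. Against AhR, where no array measured Cox8b, the mean liver signal was 2.16-fold higher for M (limma adjusted p = 0.68), 2.08-fold for 0.5M (0.71) and 1.32-fold for C (0.9996). Dim arrays of M, 0.5M and C entered these means, so the folds are not strict lower bounds. None of these differences exceeded the spread between arrays.

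The common forms read evenly on the same arrays. Cox8a lay between -0.28 and 0.13 over all 16 arrays, with -0.18 on M 2 and -0.11 on 0.5M 4. Cox6a1, the common form of subunit 6a, lay between -0.20 and 0.12, with -0.15 and -0.20 on those 2 arrays. The plot of the 4 isoforms by array shows this contrast.

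**Figure D1:**
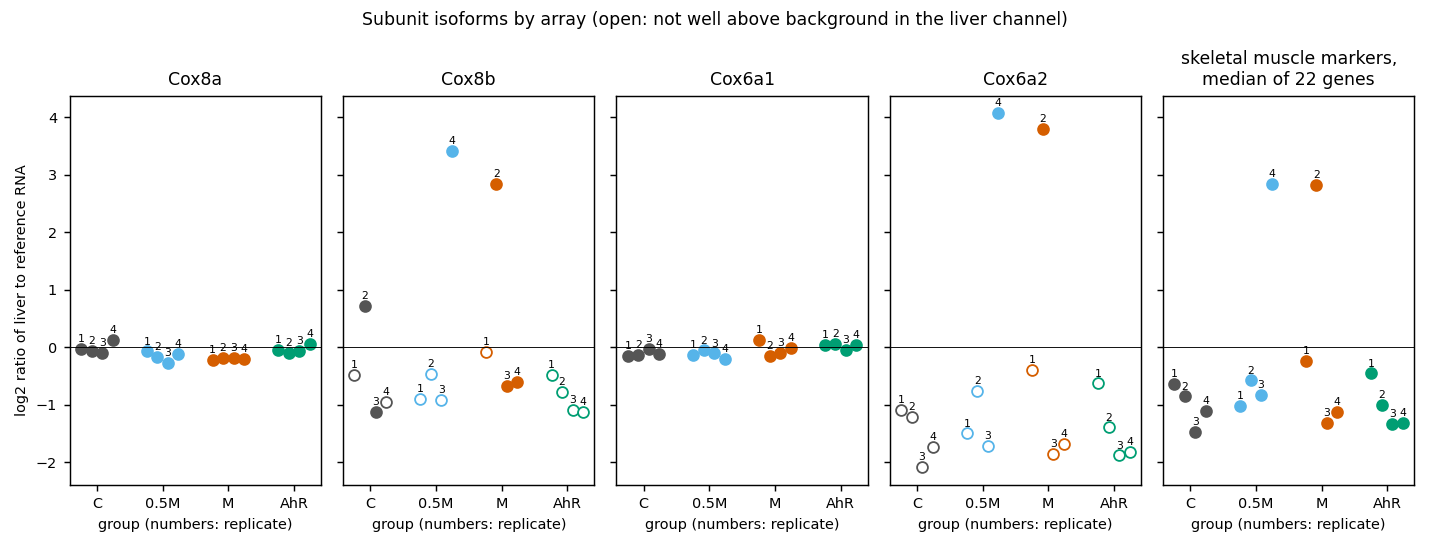
Log2 ratio of liver to reference RNA (vertical axis) on each of the 16 arrays by group, for Cox8a, Cox8b, Cox6a1, Cox6a2 and the median of 22 skeletal muscle markers; open points were not well above background and numbers give the replicate. Replicate 4 of 0.5M and replicate 2 of M reach 3.41 and 2.84 for Cox8b and 4.07 and 3.80 for Cox6a2, while Cox8a and Cox6a1 stay between -0.28 and 0.13 throughout.

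Across the 81 members no difference between groups was called. The count was 0 in each of the 6 comparisons between groups and in the F-test over the 4 groups (limma, Benjamini-Hochberg adjusted p under 0.05 over 13146 transcripts). The same threshold called 0.319% of all transcripts for M against C, 0.0152% for 0.5M against C, 0.00761% for AhR against C, 0.0152% for M against 0.5M, 0.266% for M against AhR, 0.0228% for 0.5M against AhR and 0.175% in the F-test. A count of 0 among 81 is therefore near the background.

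At an unadjusted p under 0.05, 5 members passed for M against C (1 higher, 4 lower) against 10.1% of all transcripts, 4 for 0.5M against C (2 and 2) against 6.53%, and 3 for AhR against C (all lower) against 3.78%. Between the exposed groups, 3 passed for M against 0.5M (background 6.75%), 6 for M against AhR (9.87%) and 4 for 0.5M against AhR (9.05%). The F-test gave 3 members at that level, Uqcr11, Atp5f1d and Ndufv3, against 9.36% of all transcripts. Arrays of the 2 groups did not overlap for 2 members in M against C (background 4.19%), 5 in 0.5M against C (3.04%) and 1 in AhR against C (2%).

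The members' median difference was -0.049 for M against C, with 49 of 81 lower, against a median of -0.0019 over all transcripts, of which 50.6% were lower. It was -0.023 for 0.5M (43 lower) and -0.032 for AhR (58 lower), against -0.0035 (51.2% lower) and 0.00021 (49.9% lower) over all transcripts. These comparisons share the 4 C arrays. Within slide 1 the M median was -0.050 and within slide 2 it was 0.013. Leaving out M 1 alone brought the M median to -0.0020, with 40 of 81 members below the transcripts' median of -0.0022, while median centring in place of loess gave -0.31, with 73 below the transcripts' median of -0.088. The 0.5M median was -0.0099 without C 3 and -0.010 without 0.5M 2, and the AhR median was -0.014 without C 2 and -0.049 without AhR 2. The 95% interval of the difference lay inside -0.5 to 0.5 for 79 of 81 members in M, 74 in 0.5M and 78 in AhR, and inside -1 to 1 for 80 of 81 in each, Cox8b being the exception. The members' median SD over the 16 arrays was 0.146, against 0.164 over all transcripts.

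**Figure D2:**
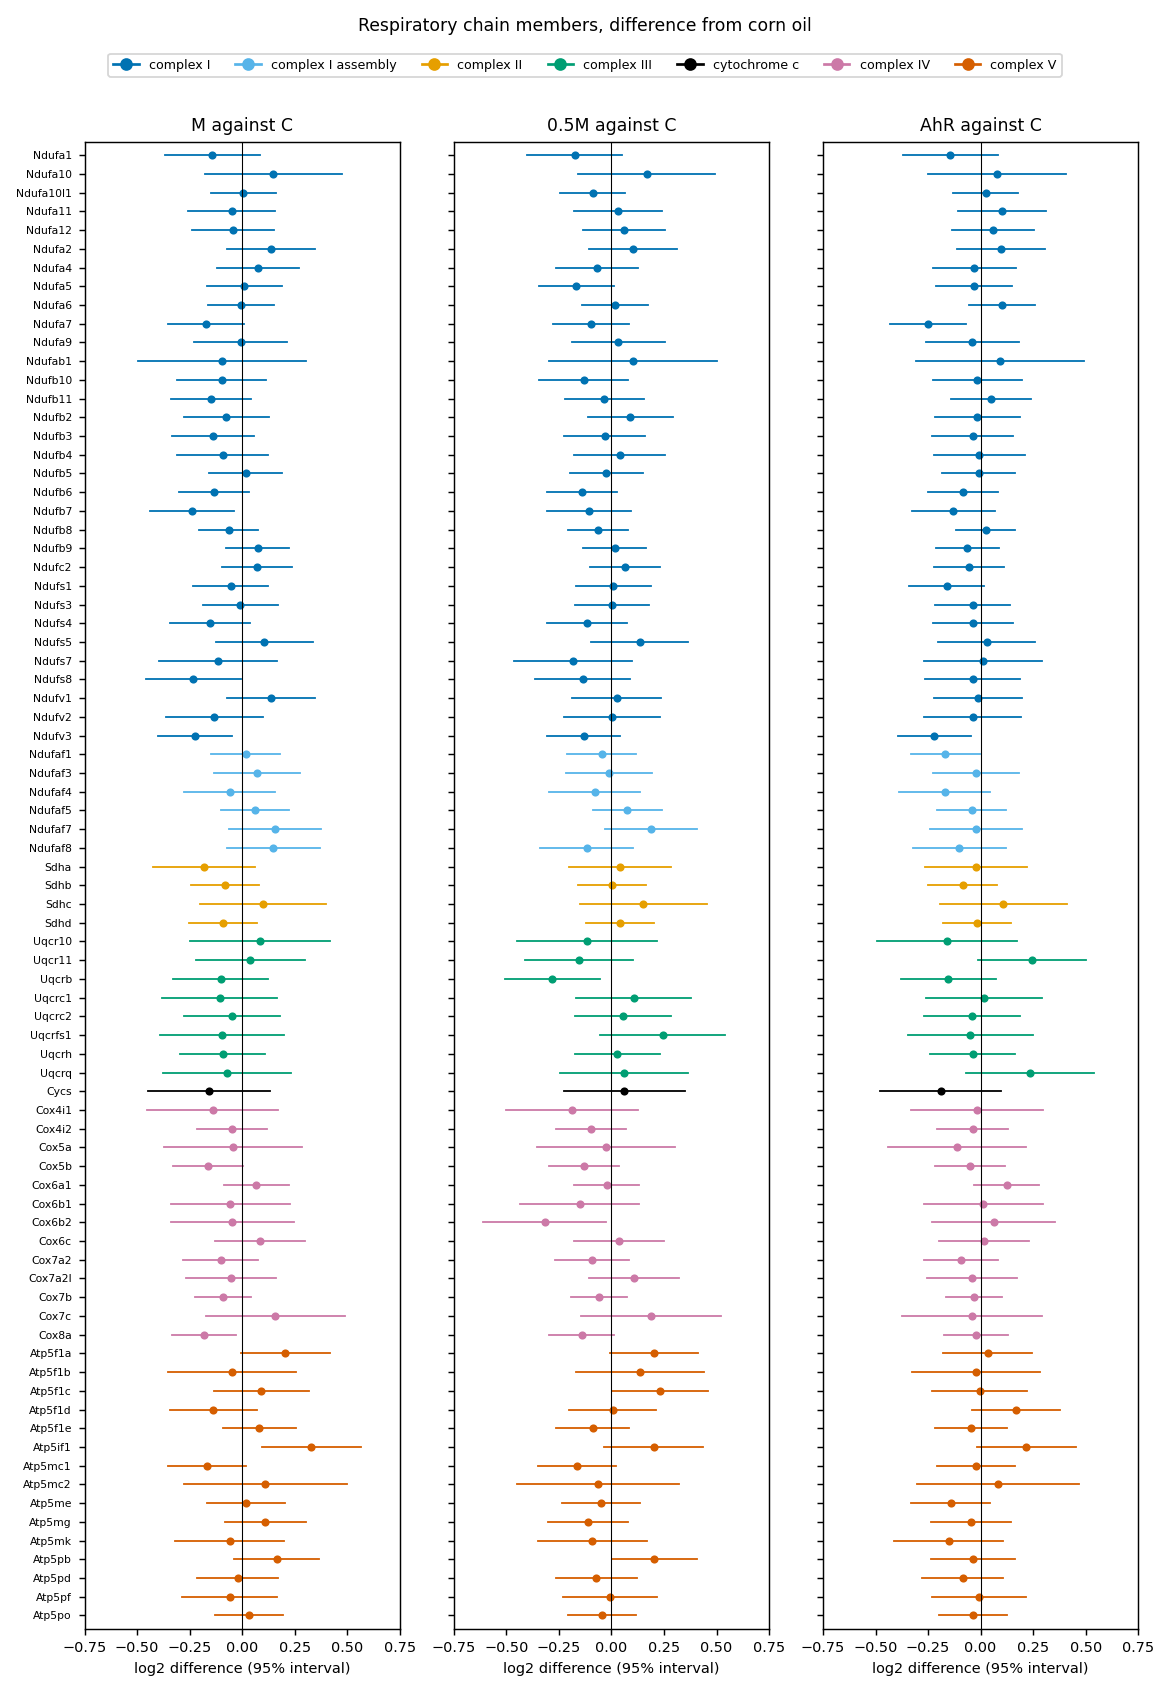
Log2 difference from C (horizontal axis) with its 95% interval for 79 of the 81 tested members (rows, coloured by complex), in M, 0.5M and AhR; n = 4 arrays per group. Cox8b is left off because its interval reaches 2.66, and 1 further member is not shown. Points sit close to 0 in every complex, and the highest for M is Atp5if1 at 0.33.

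Complex I, the entry point for NADH, had 33 tested members, with a median difference of -0.055 for M (22 lower), -0.024 for 0.5M (17 lower) and -0.031 for AhR (22 lower). Ndufv3, a small subunit of the NADH-oxidizing arm, was 0.24, -0.02, 0.20 and 0.32 on the C arrays, -0.26, -0.28, 0.18 and 0.20 on the M arrays and -0.11, -0.24, 0.14 and 0.08 on the AhR arrays. It was lower on slide 1 than on slide 2 in each exposed group, and the groups overlapped. Its difference was -0.23 ± 0.08 (SE) for M (limma adjusted p = 0.33) and -0.22 ± 0.08 for AhR (0.9996). Within slide 1 the M difference was -0.38 and within slide 2 it was -0.07.

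Ndufb7, an accessory subunit of the membrane arm, was -0.13, -0.02, -0.22 and -0.04 in C and -0.52, -0.30, -0.20 and -0.35 in M. In M, 3 of 4 arrays lay below all C arrays, and the difference was -0.24 ± 0.09 (SE; limma adjusted p = 0.38). Ndufs8, which binds iron-sulfur clusters, was 0.17, 0.31, 0.29 and 0.17 in C and -0.10, 0.26, 0.03 and -0.18 in M. Again 3 of 4 M arrays were below all C arrays, and M 2 was not. Its difference was -0.23 ± 0.11 (adjusted p = 0.47).

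Ndufa7, an accessory subunit, was -0.09, 0.17, 0.12 and 0.20 in C and -0.12, -0.33, -0.18 and 0.03 in AhR. Its difference of -0.25 ± 0.09 (SE) had the smallest unadjusted p for AhR against C, with 3 of 4 arrays below all of C (limma adjusted p = 0.9996). The gene was well above background on 3 of the 4 AhR arrays. Other core subunits of complex I differed little. Ndufv1, the NADH-binding subunit, differed by 0.14, 0.02 and -0.01 for M, 0.5M and AhR, and Ndufv2 by -0.13, 0.0026 and -0.04. Ndufs1 differed by -0.05, 0.0089 and -0.16 and Ndufs3 by -0.0090, 0.0030 and -0.04. Ndufs7 differed by -0.11, -0.18 and 0.01. Ndufa10 had the highest M difference of the complex, 0.15 ± 0.15. Ndufa4, kept with complex I by its symbol though now held to belong to complex IV, differed by 0.08, -0.07 and -0.03. None of these passed the test (adjusted p from 0.70 to 0.9996).

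In 0.5M, 2 accessory members of complex I lay below all C arrays in 4 of 4 arrays. Ndufa5 was 0.12, 0.19, 0.16 and 0.18 in C and 0.11, -0.06, -0.12 and 0.04 in 0.5M, a difference of -0.17 ± 0.08 (SE; limma adjusted p = 0.75). Ndufa10l1 was -0.36, -0.37, -0.32 and -0.37 in C and -0.39, -0.49, -0.39 and -0.50 in 0.5M, a difference of -0.09 ± 0.07 (adjusted p = 0.83). On its other kept probe the Ndufa10l1 difference was 0.09, the opposite direction. For Ndufa5 the highest 0.5M array lay just under the lowest C array.

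The 6 assembly factors of complex I, which help build the enzyme without remaining in it, had a median difference of 0.066 for M (5 higher), -0.028 for 0.5M (2 higher) and -0.072 for AhR (none higher). Ndufaf1 was 0.02, 0.03, 0.08 and -0.06 in C and -0.10, -0.27, -0.09 and -0.16 in AhR, so the 2 groups did not overlap. It was the only member that did not overlap in AhR against C, by -0.17 ± 0.08 (SE; limma adjusted p = 0.9996). The gene was well above background on 4 of 4 arrays of C but on 3 of 4 in AhR and in M. Within the slides the difference was -0.21 and -0.13. Against M, which lay above AhR in 4 of 4 arrays, its difference was 0.18 ± 0.08 (adjusted p = 0.44). Ndufaf7 had the highest M difference of the 6 at 0.16 and Ndufaf4 the lowest at -0.06. For Ndufaf4 the kept probes differed from each other by 0.43 in M against C and 0.41 in 0.5M against C, the widest spread among the 14 members with several kept probes.

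Complex II, succinate dehydrogenase, links the citric acid cycle to the chain. All 4 of its genes were tested and none was called. Sdha, the flavoprotein, was -0.93, -0.64, -0.39 and -0.25 in C and -0.69, -1.14, -0.41 and -0.70 in M. In both groups the arrays of slide 1 included the lowest values, and the groups overlapped. It differed by -0.18 ± 0.11 (SE; limma adjusted p = 0.64). Sdhb, the iron-sulfur subunit, differed by -0.08 for M, and the membrane anchors Sdhc and Sdhd by 0.10 and -0.09. In 0.5M all 4 were slightly higher than C, from 0.0026 for Sdhb to 0.15 for Sdhc, and in AhR they ranged from -0.08 to 0.11.

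Complex III passes electrons from ubiquinol to cytochrome c. Its 8 members had a median difference of -0.082 for M (6 lower), 0.043 for 0.5M (3 lower) and -0.040 for AhR (5 lower). Uqcrb, an accessory subunit, had the smallest p for 0.5M against C. It was 0.43, 0.45, 0.43 and 0.27 in C and -0.31, 0.12, 0.34 and 0.31 in 0.5M, with 1 low array on slide 1. The difference was -0.28 ± 0.11 (SE; limma adjusted p = 0.70). It was -0.54 within slide 1, -0.02 within slide 2 and 0.01 on the gene's other kept probe.

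Uqcr11, a small accessory subunit, was 0.49, -0.03, -0.18 and 0.09 in C, 0.03, 0.19, -0.14 and -0.32 in 0.5M and 0.56, 0.41, 0.21 and 0.17 in AhR. The AhR arrays were the highest as a group and overlapped with C. The difference was 0.24 ± 0.12 (SE) for AhR against C (limma adjusted p = 0.9996) and -0.40 ± 0.12 for 0.5M against AhR (adjusted p = 0.37). On its other kept probes the AhR difference was -0.02 and -0.06. Uqcrfs1, the Rieske iron-sulfur protein, differed by -0.34 ± 0.14 between M and 0.5M (adjusted p = 0.68) and by -0.10 for M and 0.24 for 0.5M against C. The core proteins Uqcrc1 and Uqcrc2 differed from C by -0.11 and -0.05 for M, by 0.11 and 0.06 for 0.5M and by 0.02 and -0.04 for AhR. Uqcr10 had the highest M difference of the complex at 0.08.

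Cytochrome c (Cycs), the soluble carrier between complexes III and IV, was 0.03, 0.12, 0.19 and -0.07 in C, 0.22, 0.04, 0.0011 and 0.24 in 0.5M, -0.52, 0.26, -0.10 and -0.01 in M and -0.31, 0.08, -0.21 and -0.06 in AhR. M held both the lowest and the highest array, M 1 and M 2. The differences from C were -0.16, 0.06 and -0.19 for M, 0.5M and AhR, each with an SE of 0.14 (limma adjusted p of 0.75, 0.95 and 0.9996).

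Complex IV, cytochrome c oxidase, had 14 tested members, with a median difference of -0.052 for M (10 lower), -0.076 for 0.5M (10 lower) and -0.033 for AhR (10 lower). Cox8a was -0.03, -0.06, -0.10 and 0.13 in C and -0.21, -0.18, -0.19 and -0.20 in M. All 4 M arrays lay below all C arrays, and the difference was -0.18 ± 0.07 (SE; limma adjusted p = 0.40). It was -0.15 within slide 1 and -0.21 within slide 2. M was also below AhR in 4 of 4 arrays, by -0.16 ± 0.07 (adjusted p = 0.48). In 0.5M, 3 of 4 arrays were below all of C, by -0.14 (adjusted p = 0.75).

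Cox6b2, the testis form of subunit 6b, was well above background on all 16 arrays. It was 0.99, 0.44, 0.48 and 0.64 in C and 0.03, 0.54, 0.40 and 0.31 in 0.5M, with 3 of 4 arrays of 0.5M below all of C. The difference was -0.32 ± 0.14 (SE; limma adjusted p = 0.75). Cox6b1, the common form, differed by -0.15 in the same comparison. On its other kept probes the Cox6b1 difference was -0.03 and -0.04, and without 0.5M 1 it was 0.0082 on the probe used. Cox4i1 and its lung form Cox4i2 differed from C by -0.14 and -0.05 for M, -0.19 and -0.10 for 0.5M and -0.02 and -0.04 for AhR. The structural subunits Cox5a and Cox5b differed by -0.04 and -0.16 for M, and Cox7a2, its relative Cox7a2l and Cox7b by -0.10, -0.05 and -0.09. Cox7c was measured above background on 1 array of C, 3 of 0.5M, 2 of M and 1 of AhR. Cox8c and Cox6c-ps1 were not well above background on any array. Over the 13 tested members of the isoform families, 9 were lower than C in M, 11 in 0.5M and 9 in AhR, with medians of -0.055, -0.093 and -0.022. Over the 22 tested core and regulatory subunits of all complexes, 16 were lower in M, 6 in 0.5M and 17 in AhR, with medians of -0.068, 0.033 and -0.030.

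Complex V, ATP synthase, had 15 members, with a median difference of 0.032 for M (9 higher), -0.043 for 0.5M (6 higher) and -0.021 for AhR (4 higher). Atp5if1, the inhibitor that blocks ATP hydrolysis when the proton gradient falls, had the smallest p of any member for M against C. It was 0.08, 0.36, 0.02 and 0.08 in C, 0.18, 0.48, 0.24 and 0.44 in 0.5M, 0.31, 0.29, 0.55 and 0.70 in M and 0.42, 0.22, 0.26 and 0.50 in AhR. C 2 lay among the exposed arrays, and the other 3 C arrays were below all 12 of them. The difference was 0.33 ± 0.11 (SE) for M (limma adjusted p = 0.28), 0.20 for 0.5M (0.75) and 0.22 for AhR (0.9996). For M it was 0.08 within slide 1 and 0.57 within slide 2, 0.42 without C 2 and 0.25 without M 4. It also depended on the normalization, at 0.08 with median centring in place of loess and 0.29 with the scanner's LogRatio.

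In the catalytic head, Atp5f1c, the gamma subunit, was -0.40, -0.03, -0.11 and -0.21 in C and 0.14, 0.05, -0.03 and 0.01 in 0.5M. Every 0.5M array lay above every C array, and the difference was 0.23 ± 0.11 (SE; limma adjusted p = 0.75). The lowest 0.5M array (-0.0294) lay just above the highest C array (-0.0310). Atp5f1a, the alpha subunit, was also above all of C in 4 of 4 arrays of 0.5M, by 0.20 ± 0.10, and differed by 0.21 in M, where 2 of 4 arrays were above all of C. Neither difference was called. The lowest 0.5M array was -0.046 and the highest C array -0.077. The Atp5f1a difference in M was 0.38 within slide 1, 0.04 within slide 2 and -0.14 with median centring in place of loess. Atp5f1b, the beta subunit, differed by 0.14 in 0.5M and overlapped. Atp5pb, the peripheral stalk's subunit b, was -0.20, 0.05, 0.02 and -0.27 in C and 0.05, 0.10, 0.16 and 0.10 in 0.5M. It was again above all of C in 4 of 4 arrays, by 0.20 ± 0.10 (limma adjusted p = 0.75). Its lowest 0.5M array (0.0489) lay just above the highest C array (0.0451).

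The other complex V members were spread around 0. Atp5mc1, one of the genes for the proton-carrying subunit c, was below all of C in 4 of 4 M arrays, by -0.17 ± 0.09 (SE; limma adjusted p = 0.53). Its highest M array (0.340) lay just under the lowest C array (0.344). Atp5mc2, another gene for the same protein, was 1.14 on M 1 and 0.91 on AhR 1 and between 0.17 and 0.67 on the other 14 arrays. Atp5f1d, the delta subunit, was below AhR in 4 of 4 M arrays, by -0.31 ± 0.10 (adjusted p = 0.28).

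**Figure D3:**
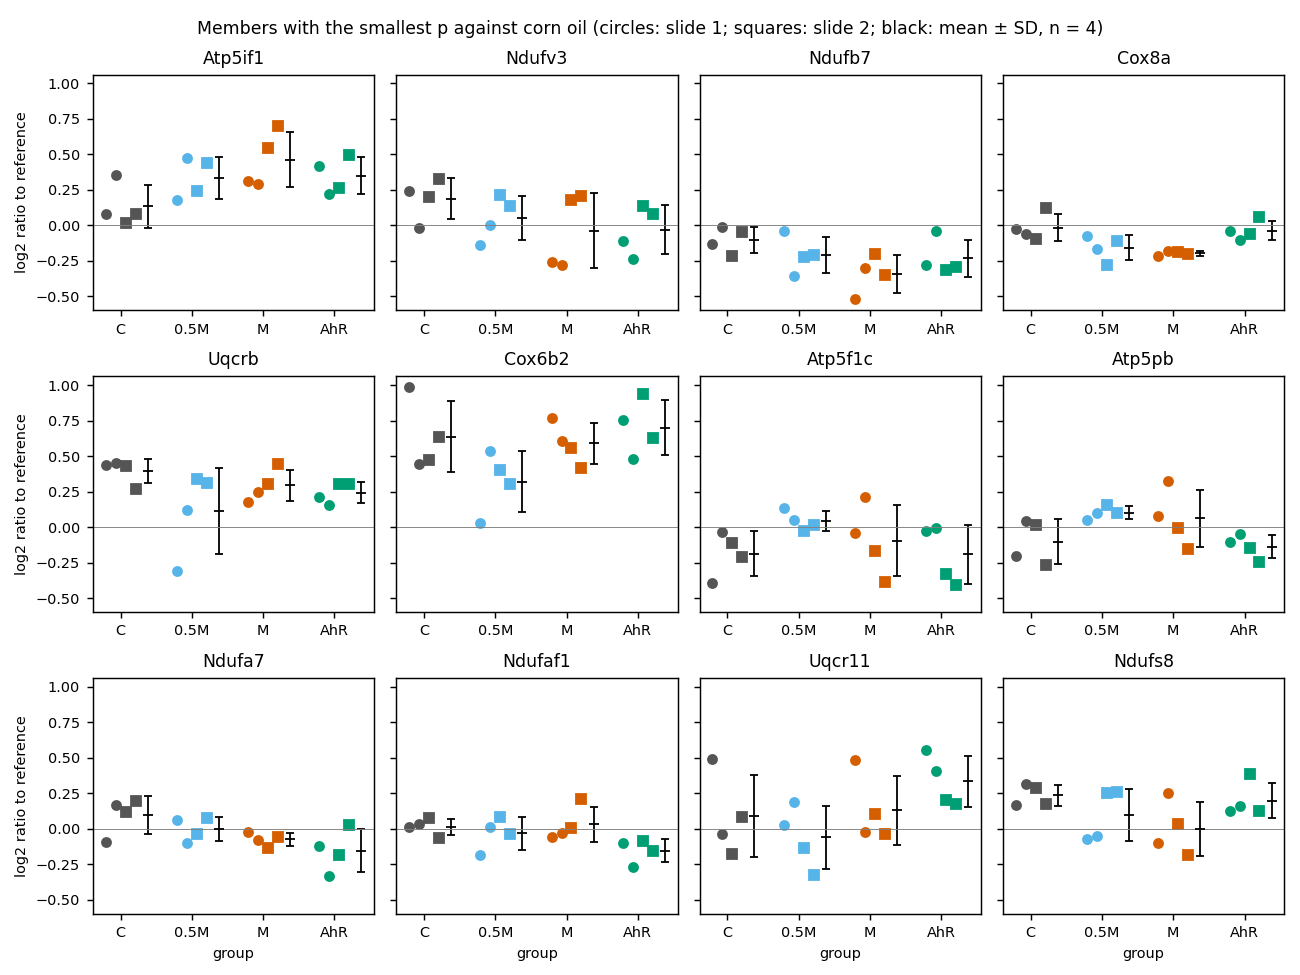
Log2 ratio of liver to reference RNA (vertical axis) by group for the 12 members that were among the 4 with the smallest p in a comparison with C or had an unadjusted p under 0.05 in M; circles are slide 1, squares slide 2, and black marks give the mean and SD of 4 arrays. Atp5if1 reaches 0.70 in M, Cox8a in M lies below all C arrays, and Atp5f1c and Atp5pb in 0.5M lie above them by narrow gaps.

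The medians of each complex on each array overlapped between C and every exposed group. Complex I medians ran from -0.04 to 0.08 in C, -0.09 to 0.06 in 0.5M, -0.10 to 0.10 in M and -0.08 to 0.07 in AhR. Complex III medians were -0.07 to 0.01 in M, below all arrays of 0.5M (0.01 to 0.09) and of AhR (0.03 to 0.16), with C from -0.05 to 0.07. The highest M array (0.0105) lay just under the lowest 0.5M array (0.0144). Complex IV medians were 0.11 to 0.18 in C, -0.02 to 0.16 in 0.5M, 0.02 to 0.17 in M and 0.04 to 0.15 in AhR. These medians are a description and carry no test.

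**Figure D4:**
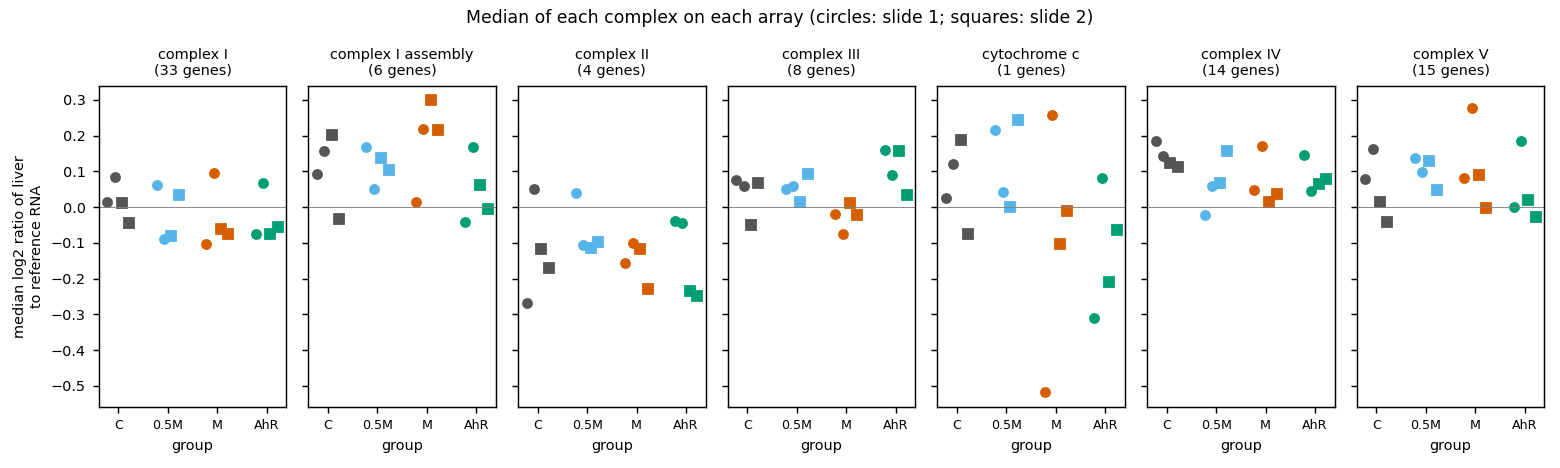
Median log2 ratio of liver to reference RNA (vertical axis) of the tested members of each complex on each of 16 arrays, by group; circles are slide 1 and squares slide 2. The medians of all complexes with more than 1 gene lie between -0.27 and 0.30, and M 1 and M 2 mark the ends of cytochrome c at -0.52 and 0.26.

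M 1 was the lowest array for 20 of 81 members (24.7%), against 10.5% of all transcripts, and was also the array with the fewest probes above background. M 2 was the highest for 12 members (14.8%, against 7.44% of all transcripts) and AhR 2 for 10 (12.3%, against 5.92%). M 1 and AhR 2 carried the pancreas markers and M 2 the muscle markers given above, and the part of these in the members' values was not tested. Without the 5 arrays C 2, M 1, M 2, 0.5M 4 and AhR 2, the members' median M difference was -0.012. Without M 1 alone it was -0.0020, and without M 2 alone -0.054.

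Some members differed by slide. Between slide 2 and slide 1, 7 of 81 members differed (limma adjusted p under 0.05; 3 higher and 4 lower on slide 2), against 8.01% of all transcripts, so the members' share was near the background. Sdha was higher on slide 2 by 0.39, from a mean of -0.79 on slide 1 to -0.40 on slide 2 (adjusted p = 0.012). Ndufb4 and Ndufv3 were each higher by 0.28. Ndufb8, Ndufb9, Atp5f1e and Atp5po differed by -0.27, -0.26, -0.28 and -0.20, all lower on slide 2. The slides held different pups, so slide and pups cannot be told apart. Without the 5 arrays named above no member passed this limma test, and 36 of all transcripts did.

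**Figure D5:**
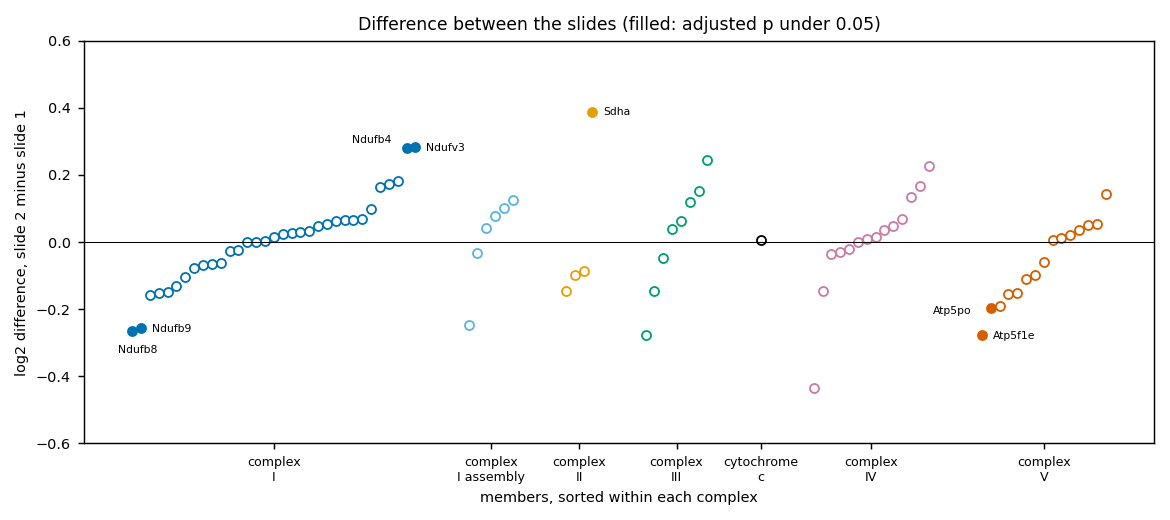
Log2 difference between slide 2 and slide 1 (vertical axis) for the 81 tested members, sorted within each complex; filled points passed an adjusted p of 0.05. Sdha stands highest at 0.39, and Atp5f1e lies at -0.28.

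Against the reference RNA, the members lay near even in C after loess. The median ratio was 0.0071, 77 of 81 members lay within 0.5 of 0 (95.1%, against 88.5% of all transcripts), and the range ran from -0.55 for Sdha to 0.64 for Cox6b2. Loess pulls the bulk of probes of a given brightness to 0. With median centring in its place the members' median in C was -0.86, the transcripts' median was -0.50 and none of the 81 was above the reference, so these data do not settle a direction against the cell lines.

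Other genes of the pathway gave no called difference from C in M, 0.5M or AhR. The gene named for M in each list is the one with the smallest p of that list. Of 30 tested assembly factors for complexes I to V outside the members, 19 were higher in M, and Acad9, an assembly factor of complex I, had the smallest p at 0.32 ± 0.08 (SE; above all of C in 4 of 4 arrays; limma adjusted p = 0.11). Of 18 regulators of mitochondrial biogenesis, 9 were higher in M, and Polg, the mitochondrial DNA polymerase, was at -0.37 ± 0.12 (adjusted p = 0.24). Of 13 enzymes of the citric acid cycle, 9 were lower in M, with Idh3a, a subunit of isocitrate dehydrogenase, at -0.42 ± 0.13 (adjusted p = 0.22). Of 8 other enzymes that feed electrons to ubiquinone, 4 were lower, with Prodh, proline dehydrogenase, at -0.22 ± 0.17. Of 7 tested carriers, channels and uncoupling proteins, 5 were lower, with Ucp2 at -0.26 ± 0.16. At an unadjusted limma p under 0.05, the lists held 2, 2, 2, 0 and 0 genes in M, in the order given here. The share over all transcripts was 10.1%. In AhR, Ppara, the fatty acid sensor, had the smallest p of the 18 regulators, 13 of which were lower, and was named after its values were seen. It was at 0.37 ± 0.12 and above all of C in 4 of 4 arrays (limma adjusted p = 0.9996). Arrays did not overlap for 2% of all transcripts in that comparison.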

How the data were processed

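Liver RNA (Cy5) and a common reference (Cy3) were hybridised to 16 Agilent arrays with 2 colours and no dye swap. Per the file headers, the deposited scan files of Agilent Feature Extraction 10.7.3.1 hold median signals and backgrounds as intensity for 62976 spots, a LogRatio column on the log10 scale, and spot marks (other) of 0 or 1. A deposited table of the authors' processed log2 values was used as an alternative. Its columns correlated at 0.977 to 0.998 with their own array's scan file at a slope of 0.946 to 0.996, with medians of -0.0093 to 0.0125; its normalization is not given in the sources used here.

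Signals were corrected with normexp (offset 50) and loess within arrays (limma 3.58.1, R 4.3.3, data.table version 1.17.8). Control spots had no weight, outlier spots were dropped, and replicate spots were averaged. Probes were retained if the liver signal was marked well above background on 4 or more of 16 arrays (14524 of 30367). Symbols came from RefSeq transcript numbers in RefSeq's gene table for assembly GRCr8 (18004 probes matched, 12363 not), and the brightest probe per gene was used. All 13146 transcripts were fitted with a mean per group and a slide term (moderated, two-sided, Benjamini-Hochberg threshold 0.05). The code was tested on simulated data.

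Where a group was not well above background, a fold sets the bright group's mean Cy5 against the higher of the dim probe and the lowest signal well above background. Dim arrays of the bright group count at their measured signal, so such a fold is not a strict lower bound. Each group has 4 arrays, and their number limits the precision (median SE of a difference 0.104). Values of 1 counted member are not reported here. The members and lists were chosen with earlier results of these data known. Named genes are the 4 members with the smallest p in each comparison with C, the extremes of each complex in M against C, and members of 2 lists (isoform families, core and regulatory subunits). Other members named for the remaining comparisons, for arrays that do not overlap or for the slide were chosen after their values were seen. Same-numbered arrays deviated together among C, M and AhR (12 of 12 correlations of deviations from the group means over 0.1, from 0.13 to 0.46), and not throughout with 0.5M (4 of 12, from -0.23 to 0.38). Same-numbered arrays also share a slide, and the labels do not tie the numbers to litters. The alternatives changed the background correction, normalization, filter, ratio source, slide term, pairing, array weights, probe choice and arrays used.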

Additional observations from a re-analysis of the deposited data

Results flagged for a closer look

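Of 208 sets of 4 arrays of a group (a named member or a complex median), 15 had 1 array far from the other 3, and chance marks about 1 in 20 such sets. Cox8b was 3.41 on 0.5M 4 and 2.84 on M 2, and Cox6a2 was 4.07 on 0.5M 4, the arrays with skeletal muscle markers. On M 1, Atp5mc2 (1.14) and Cox7b (0.10) stood above the other M arrays, and Cox5a (-0.44) below them. In C, Ndufa4 was low on C 4 (-0.48), Uqcrb was low on C 4 (0.27), and Ndufv1 was high on C 1 (-0.12). In 0.5M, Ndufs3 was high on 0.5M 1 (0.14). In AhR, Ndufb7 was high on AhR 2 (-0.037) and Ndufs8 was high on AhR 3 (0.39). Among complex medians, complex I was high on AhR 2 (0.066), complex II was high on 0.5M 1 (0.039), and complex III was low on C 3 (-0.049).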

How the results depend on the processing

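No member was called in any of the 6 comparisons or the F-test under any alternative run, including leaving out each array in turn, where the members' median difference ranged from -0.054 to -0.0020 for M, -0.034 to -0.0099 for 0.5M and -0.049 to -0.014 for AhR against C. The number of members that differed between slides ranged from 5 to 9. With the replicate block in place of the slide, 0 members were called in each comparison and 41 transcripts were called for M against C. The paired fit thus changed no call of a member. Its medians were -0.049, -0.023 and -0.032, which this block could not change, since every group holds each replicate number. Median centring in place of loess gave medians of -0.31 for M and -0.093 for AhR (all transcripts -0.088 and -0.021, so -0.22 and -0.071 relative to them), with 73 of 81 members below the transcripts' median in M, and 78 members differing between slides. With the scanner's LogRatio the M median was -0.028 against -0.052 over all transcripts, so 0.024 above them, with 37 of 81 members below the transcripts' median, and 0 members differed between slides. Likewise 0 did without C 2, M 1, M 2, 0.5M 4 and AhR 2, a fit on fewer arrays. On slide 2 alone the M median was 0.013. The cause of these shifts was not tested. Of 4308 recomputed differences of named members, 89 moved by more than the spread between arrays, and of 1215 ratios to the reference, 81 did. Signal over background limits Cox8b, Cox7c, Cox6a2, Cox8c and Cox6c-ps1, and on fewer arrays Ndufaf1, Ndufaf7, Ndufa7 and Uqcrq.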
